A study of Mus musculus with 24 samples.

Results

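Donor CD8+ T cells recovered from the small intestine were compared with donor CD8+ T cells recovered from peripheral blood on day 4 after transplantation, on 5 arrays of each site. These 10 arrays were chosen by their sample titles, out of 24 in the series. The recipients were female m-act OVA mice on a C57Bl/6 background, 8 to 16 weeks old, which carry ovalbumin under the CAG promoter. They were irradiated with 11 Gy in 2 fractions and given bone marrow cells and splenocytes, the latter from OT-I mice, whose CD8+ T cells carry a transgenic receptor for an ovalbumin peptide. Both groups share this treatment, and per the labels it led to lethal acute graft-versus-host disease. The OT-I CD8+ T cells were the CD45.1 cells of the graft, whereas the recipients and the remaining graft cells were CD45.2, and T cells were isolated from both sites with an antibody to CD45.1 and magnetic beads. Ovalbumin is thus present in the tissues of every recipient, donor and host share the strain background, and T cells were enriched on beads rather than sorted by flow cytometry. Whether every array stands for a separate animal is not given in the sources used here, so the spread behind the p-values may be partly technical.

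In acute graft-versus-host disease, donor T cells are activated in lymphoid tissue, divide, travel through the blood and enter target organs, of which the gut is a major one. Entry into the small intestine is known to use the chemokine receptor CCR9 and the integrin α4β7, while return to the circulation depends on sphingosine-1-phosphate receptors and lymph node entry on CCR7. T cells that meet antigen in a tissue switch on immediate-early transcription factors and targets of NF-kappaB, and dividing T cells express genes of DNA replication and mitosis. Cells taken from a dissociated gut can also bring RNA of Paneth cells, enterocytes, plasma cells and phagocytes with them.

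Signals are given in log2 units relative to the array, where 0 is the 75th percentile of all gene probes on that array, and a difference is small intestine minus blood. A gene was called where limma's moderated test gave an adjusted p (Benjamini-Hochberg) under 0.05 over the 8269 genes with signal in at least 1 site. Among the higher genes in small intestine were Ramp3, a receptor partner (19.9-fold), Cxcl10, a chemokine (18.1-fold), and Cd83, an activation marker induced by NF-kappaB (17.7-fold), while 12 of 29 cell cycle genes were lower. Ramp3 was well above background on 3 blood arrays and Cxcl10 on 1, so their folds rest partly on dim values and are not measured sizes. In all, 298 genes were called (3.6% of those tested), of which 25 were higher (0.302%) and 273 lower (3.3%). Of the 25, 20 had all 5 intestinal values above all 5 blood values, as did 44 of all tested genes (0.532%). Of the 273, 226 had no overlap in the other direction, as did 627 of all tested genes (7.58%). The median difference of all tested genes was -0.34, so a list of genes is read here beside that value. With arrays scaled to the median of the probes detected on all 10 that median was -0.042, and 127 genes were called, 28 higher and 99 lower (22% higher, against 8.39%).

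The 5 intestinal arrays were not alike. The share of gene probes well above background was 30.3% ± 4.94 (SD, n = 5) in small intestine and 30.03% ± 5.05 in blood (exact two-sided permutation test p = 0.952, the smallest possible being 0.0079). The correlation between arrays ran from 0.724 to 0.965 in small intestine and from 0.873 to 0.967 in blood, and the median SD of a gene was 0.605 and 0.405. Intestine 5 lay within the range of the blood arrays for 61.4% of genes, against 14.2% to 47.6% for the other 4 intestinal arrays. Without intestine 5, 1349 genes were called (16.3%), 176 higher (2.13%) and 1173 lower (14.2%), and all 298 genes were among them. Leaving out intestine 1 or 2 left 8 or 5 called genes, leaving out intestine 3 gave 491, and leaving out blood 1, 2, 3, 4 or 5 left 52, 7, 13, 28 or 10. Without intestine 4 there were 220, 44 higher and 176 lower, and without intestine 4 and 5 there were 965. Each of 5 slides held 1 array of each site, and with the slide as a block 21 genes were called, 7 higher and 14 lower. Of 55 called genes named by rule or afterwards, 11 passed with the block: Cd83, Ramp3, Cxcl10, Dhrs3, Trp53inp2, Gjb2, Haspin, Sh2d3c, Cdca2, Terf2 and Fig4. The calls of all others named below were lost with it. Within slides, 23 of the 25 higher genes were higher on all 5 slides and 264 of the 273 lower genes were lower on all 5. The same arrays had called these genes, so this agreement is largely built in and is a description only.

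T cell markers were present at both sites. The mean signal of Paneth cell markers was above every blood array on intestine 1 to 4. On intestine 5 and on the blood arrays most Paneth cell markers were not well above background. The mean signal of the T cell list (9 of its 10 genes were well above background on every array) was 5.34, 5.58, 5.88, 5.74 and 5.57 on blood 1 to 5, and 4.90, 4.22, 6.04, 3.93 and 5.78 on intestine 1 to 5. Intestine 1, 2 and 4 were thus below every blood array, and intestine 3 and 5 were not. The Paneth cell list, antimicrobial peptide genes of the crypt base, had a mean signal of -2.77 to -1.43 on the blood arrays and of 4.48, 5.59, 1.14, 6.47 and -3.07 on intestine 1 to 5. Of its 15 genes on the array, 0 to 5 were well above background in blood, 9 to 14 on intestine 1 to 4 and 2 on intestine 5. The lower mean on intestine 5 thus rests on dim values and does not show less gut RNA than in blood. Intestine 5 also had the highest 75th percentile of the 10 arrays (11.33), which lowers dim values after scaling. The enterocyte list followed the order of the Paneth cell list, with intestine 3 close to the highest blood array. It had a mean of -2.48 to -1.22 in blood and of -0.42, 2.19, -1.15, 3.41 and -2.61 on intestine 1 to 5. Of its 32 genes on the array 1 to 4 were well above background in blood, 6 to 17 on intestine 1 to 4 and 6 on intestine 5. The list of goblet, tuft and enteroendocrine genes had a mean of -1.87 to -0.84 in blood and of -1.82 to 1.84 in small intestine, and intestinal stem cell genes of -0.95 to 0.27 and -0.33 to 1.35, so both overlapped. In bulk RNA, fewer cells of a type and less RNA per cell cannot be told apart.

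**Figure D1:**
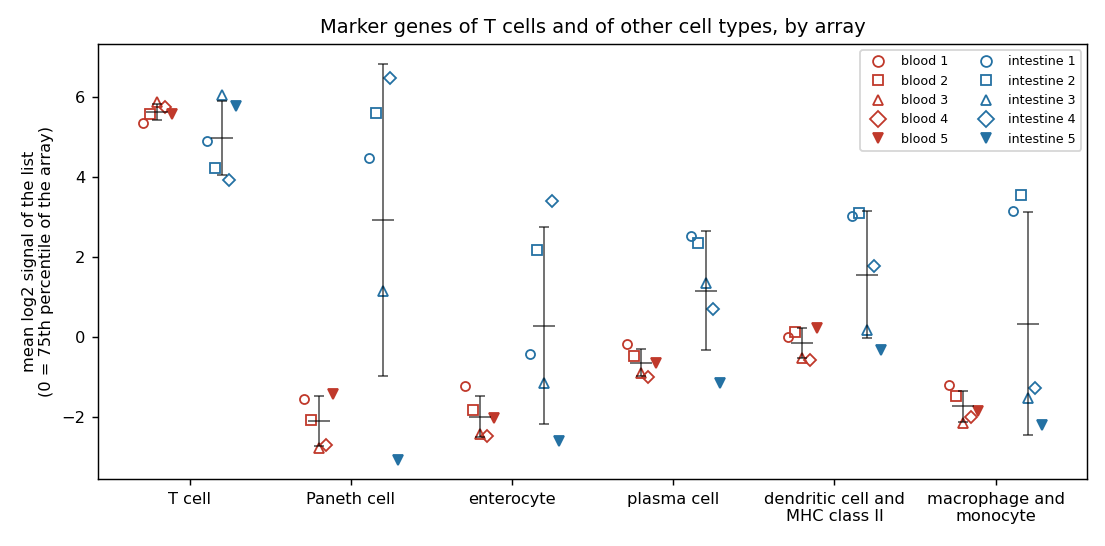
Mean log2 signal of 6 marker lists (y axis, 0 is the 75th percentile of the array) on each of 5 blood and 5 small intestine arrays, with bars for the mean and SD of each site. The Paneth cell list lies at 1.14 to 6.47 on intestine 1 to 4 and at -3.07 on intestine 5, while the T cell list lies at 3.93 or more on every array.

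Single marker genes of other cells were also low on intestine 5. Defa24, a Paneth cell defensin, had a signal of -1.01, -1.88, -2.17, -2.19 and -0.76 on the blood arrays, none of them well above background, and of 5.64, 6.69, 2.14, 7.64 and -2.26 on the intestinal ones. Jchain, which joins the chains of secreted IgA in plasma cells, was at -3.39 to -1.78 in blood and at 5.72, 5.37, 4.52, 2.48 and -3.73 on intestine 1 to 5. On the 4 graft arrays of the series the mean was 4.73 ± 0.84 (SD) for Jchain and -1.66 ± 0.631 for Defa24. Jchain signal was thus not confined to gut samples. With all 10 arrays neither was called (adjusted p 0.0561 for Defa24 and 0.0505 for Jchain), and Defa24 was at least 27.3-fold and Jchain at least 13.3-fold brighter in small intestine than the detection limit in blood. Without intestine 5 both passed the test (adjusted p 0.000941 and 0.000115), as did all 9 tested Paneth cell genes, 3 of 5 enterocyte genes, 3 of 5 plasma cell genes and 4 of 7 genes of dendritic cells and MHC class II. In that fit 2.13% of all genes were called higher. The macrophage list was far higher on intestine 1 and 2 (means of 3.16 and 3.55) than on intestine 3, 4 and 5 (-1.53, -1.28 and -2.21) or in blood (-2.15 to -1.19). Of its 4 tested genes limma called 0 with or without intestine 5, and 2 had an unadjusted p under 0.05. Of the 25 higher genes, the immunoglobulin heavy chain variable gene Igh-VJ558 was also below all blood arrays on intestine 5, at -0.88 against -0.83 to 0.77. On intestine 1 to 4 it was at 7.42, 8.02, 8.53 and 7.71, highest on intestine 3, where the Paneth cell list was lowest of these. Its mean on the graft arrays was 7.61 ± 0.126 (SD). The 3 probes of Igh-VJ558 gave differences of 6.14 (the probe used), 6.93 and 0.60.

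The other 24 higher genes lay above all 5 blood arrays on intestine 5 as well, but that array was in the fit that called them. Their place on it is thus a description and does not set them apart from RNA of other cells. Of the 176 genes that were higher without intestine 5, that array lay above all blood arrays for 44 (25.0%). It lay within the blood range for 89 of the 176 and below it for 43. Of all 8269 tested genes it lay above blood for 14.5% and below all blood arrays for 1986 genes. The values of intestine 5 did not enter the test that called the 176, although the signal filter had used all 10 arrays. The 5 blood arrays did enter that test, and they also set the range used here. Genes called higher are partly selected for low blood values, so the 25.0% is not independent of the calls. No conclusion is drawn from it beside the 14.5%. How far RNA of other cells contributed to the higher genes on intestine 1 to 4 was not tested.

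The promoters of 6 genes are shown because their genes are called examples of the groups described next: Dusp1, Nfkbie and Cxcl10 of the higher genes and Ccnb1, Kif22 and Cdc20 of the lower ones. Each is the stretch of 250 bases before the transcription start, in RefSeq's annotation of GRCm38.p6, and 6 of the 8 genes looked up were in the table (Cd83 and Ccr7 were not among them). Capitals mark, on either strand, TGANTCA (AP-1), TGACG (core of the cAMP response element), the NF-kappaB element (by its name), TTTGAA (the cell cycle homology region), CCAAT, GAANNTTC (heat-shock element core) and GCGTG (aryl hydrocarbon receptor core). Matches may overlap, as the neighbouring TGACG cores of Dusp1 and NF-kappaB elements of Cxcl10 do.
Dusp1, chr17:26508473-26508722, minus strand: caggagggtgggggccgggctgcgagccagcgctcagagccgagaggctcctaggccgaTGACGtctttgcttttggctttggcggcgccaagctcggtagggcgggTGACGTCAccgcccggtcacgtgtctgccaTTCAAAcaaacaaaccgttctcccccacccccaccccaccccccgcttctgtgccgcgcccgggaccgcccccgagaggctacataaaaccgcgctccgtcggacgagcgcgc
Nfkbie, chr17:45555450-45555699, plus strand: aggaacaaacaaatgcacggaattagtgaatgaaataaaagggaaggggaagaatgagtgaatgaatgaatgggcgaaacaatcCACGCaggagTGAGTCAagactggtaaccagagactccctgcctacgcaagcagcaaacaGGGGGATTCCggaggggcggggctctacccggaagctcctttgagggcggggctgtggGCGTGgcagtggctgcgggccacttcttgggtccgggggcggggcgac
Cxcl10, chr5:92348890-92349139, minus strand: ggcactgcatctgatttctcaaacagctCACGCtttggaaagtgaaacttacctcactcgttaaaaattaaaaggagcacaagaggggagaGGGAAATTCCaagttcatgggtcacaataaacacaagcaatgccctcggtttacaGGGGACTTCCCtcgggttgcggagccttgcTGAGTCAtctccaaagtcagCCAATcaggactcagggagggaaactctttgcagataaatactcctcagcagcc
Ccnb1, chr13:100786487-100786736, minus strand: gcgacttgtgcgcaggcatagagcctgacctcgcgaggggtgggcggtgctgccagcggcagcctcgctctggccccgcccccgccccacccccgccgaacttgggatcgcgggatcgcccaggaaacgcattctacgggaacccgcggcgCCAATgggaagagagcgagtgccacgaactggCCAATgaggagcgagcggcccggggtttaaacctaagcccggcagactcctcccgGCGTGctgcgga
Kif22, chr7:127042421-127042670, minus strand: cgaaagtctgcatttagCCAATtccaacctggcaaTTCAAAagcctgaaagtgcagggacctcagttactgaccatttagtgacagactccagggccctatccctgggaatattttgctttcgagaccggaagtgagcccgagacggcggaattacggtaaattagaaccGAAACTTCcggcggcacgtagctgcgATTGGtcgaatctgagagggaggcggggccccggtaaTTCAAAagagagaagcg
Cdc20, chr4:118437344-118437593, minus strand: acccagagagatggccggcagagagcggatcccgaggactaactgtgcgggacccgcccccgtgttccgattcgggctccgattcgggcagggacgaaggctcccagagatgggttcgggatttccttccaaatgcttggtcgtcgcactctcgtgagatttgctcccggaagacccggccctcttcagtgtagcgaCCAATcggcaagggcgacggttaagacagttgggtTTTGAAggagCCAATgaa

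The AP-1 letters lay in the windows of Nfkbie and Cxcl10, and in 6.75% of 32851 mouse promoter windows of the same length. The NF-kappaB element lay in the same 2 windows and in 7.25% of all. TGACG lay in that of Dusp1 and in 17.8% of all. CCAAT lay in those of Ccnb1, Kif22, Cdc20 and Cxcl10 and in 33.8% of all, and the cell cycle homology letters in those of Kif22, Cdc20 and Dusp1 and in 16.0% of all. GCGTG lay in 3 of the 6 windows and in 28.2% of all, and GAANNTTC in that of Kif22 and in 6.69% of all. The serum response element (1.47% of all windows) and the E2F letters TTTNGCGC (1.13%) were in 0 of the 6. These matches are descriptions of letters, not of bound sites.

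The higher genes are described by list, beginning with NF-kappaB. Cd83 (probe at chr13:43898276-43898335 on mm9) had a signal of 0.57, 1.95, 0.054, 0.21 and 1.66 on blood 1 to 5 and of 5.34, 6.11, 4.87, 3.68 and 5.19 on intestine 1 to 5. The sites did not overlap, and the difference was 4.15 ± 0.489 (SE; adjusted p = 0.00617, and 0.00343 with the slide as a block). Nfkbie, an inhibitor of NF-kappaB that is itself a target of it (mm9 chr17:45700000-45700059), was at -0.48, 0.57, 0.79, 0.26 and 0.63 in blood and at 3.43, 3.03, 2.65, 0.61 and 2.67 in small intestine. Intestine 4 lay within the blood range, and the difference was 2.12 ± 0.479 (adjusted p = 0.0406, and 0.0696 with the block). Of the 16 tested members of the list of NF-kappaB members and feedback genes these 2 were called higher and 0 lower. Over all genes 0.302% were called higher and 3.3% lower. In the list 13 differences were above 0, with a median of 0.51 beside -0.34 for all genes. Relb and Nfkb2, an NF-kappaB subunit and a subunit precursor, had differences of 1.35 and 1.27 with adjusted p of 0.0927 and 0.166.

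Of 27 tested immediate-early genes 1 was called higher, where 0.302% of all genes were, and 0 lower. It was Dusp1, a phosphatase that switches off MAP kinases. Its signal was 0.81, 1.43, -0.11, -0.71 and 0.070 in blood and 2.71, 2.72, 1.82, 0.95 and 2.20 in small intestine, with intestine 4 inside the blood range, and the difference was 1.78 ± 0.448 (adjusted p = 0.0491, and 0.0512 with the block). Another 3 AP-1 and stress genes missed the threshold by little. The difference was 1.32 for Jun (adjusted p 0.0507), 2.21 for Gadd45b (0.054) and 3.48 for Fos (0.0652), and each passed without intestine 5 (0.0242, 0.0351 and 0.0394), and Fos with the block (0.0463). Fos was well above background on 2 blood arrays, so its fitted difference is not a measured size. Of the 27 genes 24 had a difference above 0, with a median of 0.80. By array the median of the list, relative to the blood mean, was 1.13, 1.02, 0.62, -0.23 and 0.94 on intestine 1 to 5 and -0.47 to 0.40 on the blood arrays, and on intestine 5, 17 of the 27 lay above all blood arrays, as did 14.5% of all genes. Without intestine 5, 5 were called higher and 2, Zfp36l2 and Irf4, lower, where 2.13% and 14.2% of all genes were. Cells from the intestine had been through tissue dissociation and cells from blood had not, per the labels, and dissociation and site cannot be told apart. Cytosolic heat-shock genes, which also respond to handling, had 0 of 16 members called by limma in either direction and a median difference of -0.42, with 4 lower and 0 higher at an unadjusted p under 0.05, where 23.1% of all genes were lower and 4.24% higher, so the list stood near the background, and Hspa1a was well above background on 0 blood and 3 intestinal arrays.

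Of 9 tested cytokine genes, Il17a and Tnfsf11 were called higher, and of 7 chemokine genes Cxcl10 was, where 0.302% of all genes were. Cxcl10, a chemokine induced by interferon that attracts CXCR3-bearing T cells (mm9 chr5:92775781-92775840), was at -1.33, 0.19, -2.13, -3.13 and -1.81 in blood and at 3.86, 4.14, 1.43, 1.57 and 1.71 in small intestine. It was well above background on 1 blood array and on all 5 intestinal arrays, and the difference was 4.18 ± 0.682 (adjusted p = 0.0215, and 0.00343 with the block). That fitted difference is thus not a measured size. Cxcl10 was highest on intestine 1 and 2, where the macrophage list had means of 3.16 and 3.55, against -1.53, -1.28 and -2.21 on intestine 3, 4 and 5. The part of macrophages in the Cxcl10 signal was not tested. Il17a, the cytokine of type 17 T cells (mm9 chr1:20724404-20724463), was at -0.48, -0.18, -0.55, -3.73 and -3.31 in blood and at 2.46, 0.20, 1.55, 1.87 and 3.02 in small intestine, a difference of 3.47 ± 0.755 (adjusted p = 0.0399, and 0.072 with the block). The sites did not overlap for either gene, but Il17a was well above background on 2 blood arrays. Its fitted difference is not a measured size either. Il17a is also a marker of gamma-delta and innate-like T cells, and the mean of that list was highest on intestine 5, at 1.71, against -0.89 to 0.35 on intestine 1 to 4 and -1.35 to -0.49 in blood. The part of such cells in the Il17a signal was not tested. Tnfsf11, the ligand RANKL, was at -0.18, -0.40, -0.26, 0.0090 and 1.08 in blood and at 3.16, 2.69, 2.62, 0.39 and 2.34 in small intestine (2.19 ± 0.486, adjusted p = 0.0402, and 0.0688 with the block). It was well above background on 3 blood arrays. Other members did not pass: Ifng, the main cytokine of CD8+ effector cells, differed by 0.37 (adjusted p = 0.635), Xcl1 by 1.37 (0.0952) and Ccl4 by 0.77 (0.388).

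Ramp3 is a receptor activity-modifying protein that partners the receptors of calcitonin-family peptides. Its signal was 0.065, 0.73, 1.60, 1.90 and -2.82 in blood and 5.16, 4.75, 6.10, 3.23 and 3.81 in small intestine, a difference of 4.31 ± 0.815 (19.9-fold, adjusted p = 0.0303), and a second probe gave 3.56. Ramp3 was well above background on 3 blood arrays, so this fold rests partly on dim values. Dhrs3, a retinaldehyde reductase induced by retinoic acid, was at 0.14, 0.37, 0.17, -0.86 and -0.59 in blood and at 2.76, 3.28, 2.42, 0.78 and 2.26 in small intestine (2.46 ± 0.438, adjusted p = 0.0282). It was the 1 called gene of the 6 tested in the list of retinoic acid and aryl hydrocarbon receptor genes, where 0.302% of all genes were called higher. Ahr itself was below the signal filter, well above background on 2 blood and 3 intestinal arrays. Trp53inp2, which promotes autophagy, rose by 2.55 ± 0.318 (adjusted p = 0.00617) and was well above background on 3 blood arrays. Gjb2, the gap junction protein connexin 26, was well above background on 0 blood arrays and on all 5 intestinal ones and at least 2.96-fold brighter (adjusted p = 0.00734). With the slide as a block Ramp3, Dhrs3, Trp53inp2 and Gjb2 kept an adjusted p of 0.0487, 0.0289, 0.0185 and 0.0144.

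Crem, a transcription factor of the cAMP response, rose by 2.08 ± 0.359 (adjusted p = 0.0253, and 0.0589 with the block), and its second probe gave 1.87. H2-Q8, an MHC class I gene of a family with near-identical copies, had a difference of 1.91 ± 0.435, and cross-hybridisation among its copies makes this value uncertain. Coq10b and Atp1b1 were not well above background on any blood array and were at least 3.01-fold and 2.08-fold brighter in small intestine. Tpd52, Tmcc3, Metrnl, Ifrd1, Ckb, Adh4, Nxt2, Rhob and Gm1096 had differences between 1.17 and 2.23, and a second probe of Tmcc3 gave 0.60. Of these, Tpd52, Tmcc3, Adh4 and Nxt2 were each well above background on 2 blood arrays and Rhob on 3. Cish, an inhibitor of cytokine signalling induced by STAT5, was at -1.66, 1.28, 0.37, -3.81 and 0.32 in blood and at 3.26, 2.96, 2.18, 1.38 and 2.44 in small intestine, without overlap, and missed the threshold (adjusted p = 0.0507).

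**Figure D2:**
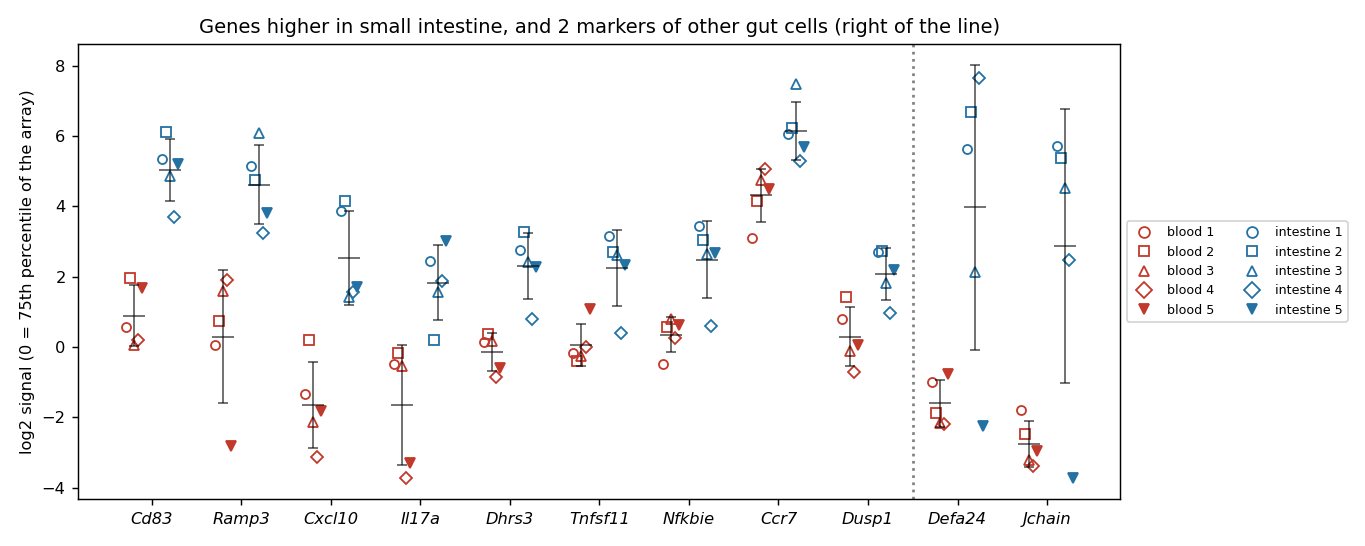
Log2 signal (y axis, 0 is the 75th percentile of the array) of 9 genes that were higher in small intestine, and of Defa24 and Jchain as markers of Paneth and plasma cells, on 5 blood and 5 small intestine arrays with the mean and SD of each site. Intestine 5, the filled blue triangle, lies with the other intestinal arrays for the 9 genes and at or below the blood arrays for Defa24 and Jchain. The 9 genes were called with intestine 5 in the fit.

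Genes of cell division were lower in small intestine. Of the 29 tested genes in the list of cell cycle and mitosis 12 were called lower and 0 higher, where 3.3% of all genes were called lower, and 28 had a difference below 0. The median was -1.39, against -0.34 for all genes and -0.63 for the 9 T cell markers, and over the other scalings it ran from -1.33 to -1.09. Without intestine 5, 22 of 29 were called lower, where 14.2% of all genes were, and the median was -1.63. At an unadjusted p under 0.05, 25 of the 29 were lower and 0 higher, where 23.1% of all genes were lower and 4.24% higher. With the slide as a block limma called 0 at the adjusted threshold and 23 at the unadjusted one. Leaving out blood 2, 3 or 5 or intestine 1 or 2 also left 0 called, while the median stayed between -1.62 and -1.23 whichever single array other than intestine 5 was left out.

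The called members included cyclins and transcription factors of the cell cycle, while E2f1 (-0.97, adjusted p 0.0561) and Ccnd2 (-0.62, 0.276) did not pass. Ccnb1, cyclin B1 of mitotic entry (mm9 chr13:101548722-101548781), was at 3.74, 3.67, 3.43, 2.79 and 4.13 in blood and at 1.18, -0.13, 1.04, 1.65 and 2.36 in small intestine, a difference of -2.33 ± 0.425 (adjusted p = 0.0286), and its second probe gave -2.40. E2f2, a transcription factor of the G1 to S transition, was at 3.31, 4.30, 4.31, 3.78 and 4.04 in blood and at 1.15, 0.91, 1.75, 2.55 and 2.15 in small intestine (-2.25 ± 0.353, adjusted p = 0.0212). Neither gene overlapped between the sites, and with the block their adjusted p was 0.0589 and 0.0512. Ccne1, cyclin E1, was at 3.18 to 3.80 in blood and at 1.32, 0.99, -1.59, 1.19 and 2.49 in small intestine (-2.64 ± 0.584, adjusted p = 0.0402). Foxm1, which activates mitotic genes, fell by 2.95 ± 0.539 (adjusted p = 0.0286), but was well above background on 1 intestinal array, intestine 5, where its 0.057 touched the blood range of 0.054 to 1.93.

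Haspin and Kif22, which are in no list, and Cdc20 of the cell cycle list were also called lower, whereas the list's kinases Plk1 (adjusted p 0.059) and Bub1 (0.0622) and motors Kif11 (0.172) and Cenpe (0.373) were not. Haspin, the kinase that marks histone H3 at centromeres, was at 0.20, 0.40, 0.82, 0.97 and 1.11 in blood and at -2.84, -2.44, -2.58, -2.24 and -1.12 in small intestine, a difference of -2.94 ± 0.344 (adjusted p = 0.00617, and 0.012 with the block), and it was well above background on 1 intestinal array, intestine 5. Kif22, a chromosome-arm motor, was at 3.22, 3.98, 3.82, 3.32 and 3.70 in blood and at 1.39, 0.32, 1.42, 1.18 and 2.74 in small intestine (-2.20 ± 0.39, adjusted p = 0.0282). Cdc20, the activator of the anaphase-promoting complex, was at 5.47, 5.58, 5.19, 4.67 and 5.50 in blood and at 3.53, 3.26, 3.62, 3.85 and 4.55 in small intestine (-1.52 ± 0.301, adjusted p = 0.0334). All 5 intestinal arrays lay below all 5 blood arrays for these 3 called genes, as for 7.58% of all tested genes. With the block Kif22 and Cdc20 had an adjusted p of 0.0589 and 0.0688. Mki67, a widely used marker of cycling cells, had a difference of -0.39 (adjusted p = 0.725), with blood arrays from 2.08 to 5.89 and intestinal ones from 1.91 to 4.95.

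Of 30 tested DNA replication genes 6 were called lower and 0 higher, where 3.3% of all genes were called lower. Of the 30, 29 had a difference below 0, and the median was -0.98, with -0.99 to -0.68 over the other scalings. At an unadjusted p under 0.05, 22 were lower and 0 higher, where 23.1% of all genes were lower and 4.24% higher. Without intestine 5, 14 were called lower, as were 14.2% of all genes. With the block limma called 0 (21 at the unadjusted threshold), and leaving out any single blood array or intestine 1 or 2 left 0 called. Pole, the catalytic subunit of the leading-strand polymerase, was at 3.35, 3.53, 3.58, 3.55 and 3.28 in blood and at 2.45, 2.20, 2.46, 1.39 and 2.20 in small intestine (-1.32 ± 0.262, adjusted p = 0.0344). Rrm1, the large subunit of ribonucleotide reductase, was at 4.38, 4.66, 4.56, 4.23 and 4.86 in blood and at 3.69, 3.05, 3.30, 2.84 and 3.61 in small intestine (-1.24 ± 0.258, adjusted p = 0.0375). Rrm2, its partner, fell by 1.42 ± 0.302 (adjusted p = 0.0382), Pold1, of the lagging-strand polymerase, by 1.27 ± 0.264 and Gins1, of the replicative helicase, by 1.31 ± 0.272 (adjusted p 0.0375 for both). The sites did not overlap for these 5 called genes, as for 7.58% of all tested genes in this direction. Tk1, thymidine kinase, had a difference of -1.46 (adjusted p = 0.0505), while its second probe gave -0.11.

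**Figure D3:**
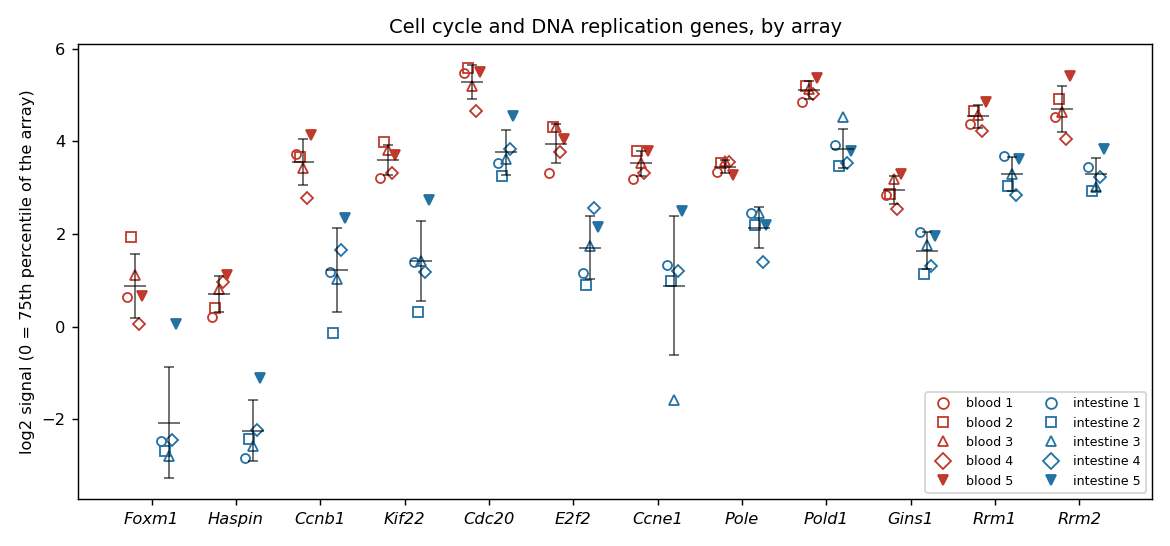
Log2 signal (y axis, 0 is the 75th percentile of the array) of 12 cell cycle and DNA replication genes on 5 blood and 5 small intestine arrays, with the mean and SD of each site. All intestinal values lie below all blood values for 11 of the 12 genes, and for Foxm1 intestine 5 at 0.057 meets the lowest blood array at 0.054. The 12 genes were chosen among those called lower on these arrays, and 7.58% of all tested genes had no overlap in this direction.

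The lists were then set beside the T cell genes array by array. Relative to the blood mean, the median of the cell cycle list was -1.33, -1.80, -1.86, -1.74 and -0.40 on intestine 1 to 5 and -0.59 to 0.28 on the blood arrays. The median of the replication list was -0.63, -1.32, -0.60, -1.67 and -0.57 on intestine 1 to 5 and -0.16 to 0.32 on the blood arrays. The T cell receptor list had medians of -0.61, -1.31, 0.21, -1.74 and 0.042 on intestine 1 to 5. Intestine 3 and 5 had a T cell receptor median above the blood mean together with a replication median below that of every blood array. The T cell receptor median of intestine 5 lay within the range of the blood arrays, -0.25 to 0.19. The part of the share of T cell RNA in the lower replication and cell cycle genes was not tested. On intestine 5, 2 of 15 Paneth cell genes were well above background, against 0 to 5 on the blood arrays. There 29 of 30 replication genes lay below the blood mean and 20 below all 5 blood arrays. Over all 8269 genes 4670 lay below the blood mean on intestine 5 and 1986 below all blood arrays. Of the 29 cell cycle genes 22 lay below the blood mean on intestine 5 and 9 below all blood arrays, and its median of -0.40 was within the range of the blood arrays.

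**Figure D4:**
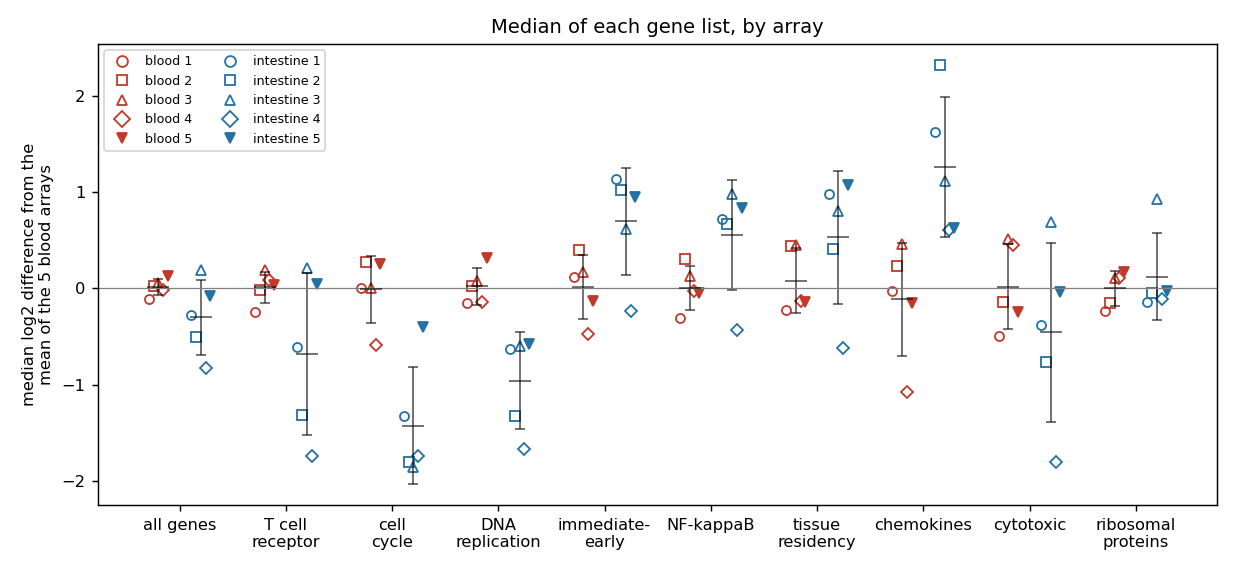
Median over the tested genes of 9 lists, and of all tested genes, of the log2 difference from the mean of the 5 blood arrays (y axis), for each blood and small intestine array, with the mean and SD of each site. The replication list lies below every blood array on all 5 intestinal arrays. The T cell receptor list lies at 0.21 and 0.042 on intestine 3 and 5, at -0.61 or below on the other 3, and at -0.25 to 0.19 on the blood arrays.

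The other lower genes included Dusp7, a MAP kinase phosphatase, and Sh2d3c, an adaptor of integrin signalling. Dusp7 was at 1.36, 1.95, 2.54, 2.75 and 2.00 in blood and at -2.90, -2.51, -2.65, -2.38 and 1.60 in small intestine (-3.89 ± 0.737, adjusted p = 0.0303, and 0.0589 with the block). Sh2d3c was at 2.71, 3.21, 2.66, 1.93 and 3.12 in blood and at -1.04, -1.45, -1.54, -2.46 and 1.86 in small intestine (-3.65 ± 0.651, adjusted p = 0.0282, and 0.0411 with the block). For both, intestine 5 was well above background and intestine 1 to 4 were not, so the fitted differences are not measured sizes, and the same holds for Cdca2, Fam53b, Iqcc, Deaf1 and Trim21. A second tested probe gave -1.05 for Fam53b, -0.12 for Deaf1 and -0.28 for Terf2, where the probe used gave -3.31, -2.77 and -2.84, so these 3 differences depend on the probe. Of the 273 lower genes, 7 were well above background on 0 intestinal arrays, 51 on 1 and 150 on all 5. Fam78a, Ccdc92 and Tti1 had differences between -3.28 and -2.88. Fig4 (-2.77) was well above background on 1 intestinal array, so its fitted difference is not a measured size either. The same holds for Foxm1, Haspin and Prf1. Zbtb32, a transcriptional repressor of activated lymphocytes, was well above background on all arrays, at 5.24, 5.55, 5.08, 4.61 and 4.81 in blood and at 3.84, 2.68, 3.31, 2.27 and 4.39 in small intestine (-1.76 ± 0.392, adjusted p = 0.0406, and 0.0693 with the block). Keap1, the sensor of oxidative stress, fell by 1.22 ± 0.246, Gclc, the rate-limiting enzyme of glutathione synthesis, by 1.42 ± 0.336, and Nop2, a ribosomal RNA methyltransferase, by 0.94 ± 0.227 (adjusted p 0.0354, 0.0444 and 0.0466).

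Of the receptors that direct T cells, Ccr7 was higher and Ccr10 lower. Ccr7, which guides T cells into and through lymphatics, was at 3.09, 4.16, 4.76, 5.07 and 4.48 in blood and at 6.06, 6.21, 7.48, 5.29 and 5.70 in small intestine, without overlap (1.84 ± 0.452, adjusted p = 0.0481, 0.0229 without intestine 5 and 0.0721 with the block). Ccr10, a receptor of epithelial chemokines, was at 0.31, 0.40, 2.14, 0.22 and 1.19 in blood and at -0.29, -2.67, -2.78, -2.52 and -0.24 in small intestine (-2.55 ± 0.592, adjusted p = 0.0427, and 0.0696 with the block). It was well above background on 2 intestinal arrays. Ccr9, the gut-homing receptor, had a difference of 1.14 ± 0.796 (adjusted p = 0.294), with blood arrays from -2.14 to 1.72 and intestinal ones from -0.11 to 2.37. Itgb7 differed by -0.35 (adjusted p = 0.417). Its partner Itga4, the α4 integrin, was at 5.33, 5.50, 5.29, 5.40 and 5.49 in blood and at 3.81, 2.92, 4.41, 1.99 and 5.08 in small intestine, below all blood arrays on each, and missed the threshold at -1.76 ± 0.484 (adjusted p = 0.0603, and 0.00971 without intestine 5).

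The receptors of egress and lymph node entry other than Ccr7 were not called with all 10 arrays. S1pr1, the receptor that leads T cells back to the circulation, was at 2.43, 2.86, 3.37, 4.01 and 2.45 in blood and at 0.70, -0.43, 2.21, -2.43 and 1.65 in small intestine, again without overlap (-2.69 ± 0.734, adjusted p = 0.0595, and 0.0233 without intestine 5). Klf2, a transcription factor that activates S1pr1, differed by -0.42 (adjusted p = 0.401). Of 13 tested genes of gut homing 0 were called higher and 1 lower, and of 11 of egress and lymph node homing 1 higher and 0 lower. Over all genes 0.302% were called higher and 3.3% lower. Without intestine 5, gut homing had 1 higher and 4 lower and egress 1 higher and 3 lower, against 2.13% and 14.2% of all genes. At an unadjusted p under 0.05, egress had 2 higher and 5 lower and gut homing 1 higher and 3 lower. The shares of all genes were 4.24% higher and 23.1% lower. The levels of these T cell genes on intestine 1, 2 and 4 stand beside T cell markers that were below blood on the same arrays. The part of the share of T cell RNA in these differences was not tested.

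Genes of tissue residency and effector function mostly did not differ beyond the spread of the arrays. Of 16 tested residency genes limma called 0 in either direction with or without intestine 5, and 2 were higher and 0 lower at an unadjusted p under 0.05 (4.24% and 23.1% of all genes). The median was 0.60 and 11 differences were above 0. On intestine 5, 8 of the 16 lay above all blood arrays, as did 14.5% of all genes. Cd69, which retains T cells in tissue, differed by 1.36 ± 0.774 (adjusted p = 0.237). Cxcr6, the lowest of the 5 residency genes with a difference below 0, differed by -1.13 ± 0.701 (adjusted p = 0.255). Its second probe gave -1.22. Nr4a1, induced by T cell receptor signals, differed by 1.37 ± 0.451 (adjusted p = 0.0915). Itgae, the αE integrin of intraepithelial T cells, was well above background on 0 of the 10 arrays and Itga1 on 2 intestinal ones. Of 15 tested cytotoxic genes 1 was called lower, where 3.3% of all genes were: Prf1, the pore-forming perforin. It was at 0.32, 0.34, 1.77, 1.20 and -0.28 in blood and at -1.47, -2.60, -0.79, -2.47 and -0.044 in small intestine, with intestine 5, the intestinal array on which it was well above background, inside the blood range (-2.14 ± 0.529, adjusted p = 0.0488, and 0.0731 with the block). Gzma, granzyme A, was at 6.58 to 6.84 in blood and at 6.19 to 7.39 in small intestine (difference -0.068, adjusted p = 0.856), and Gzmb differed by -1.06 ± 0.539 (adjusted p = 0.213). The inhibitory receptor Pdcd1 differed by 0.047, and the transcription factors Tbx21 and Tcf7 by 0.097 and -1.02 (adjusted p 0.913, 0.804 and 0.257).

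**Figure D5:**
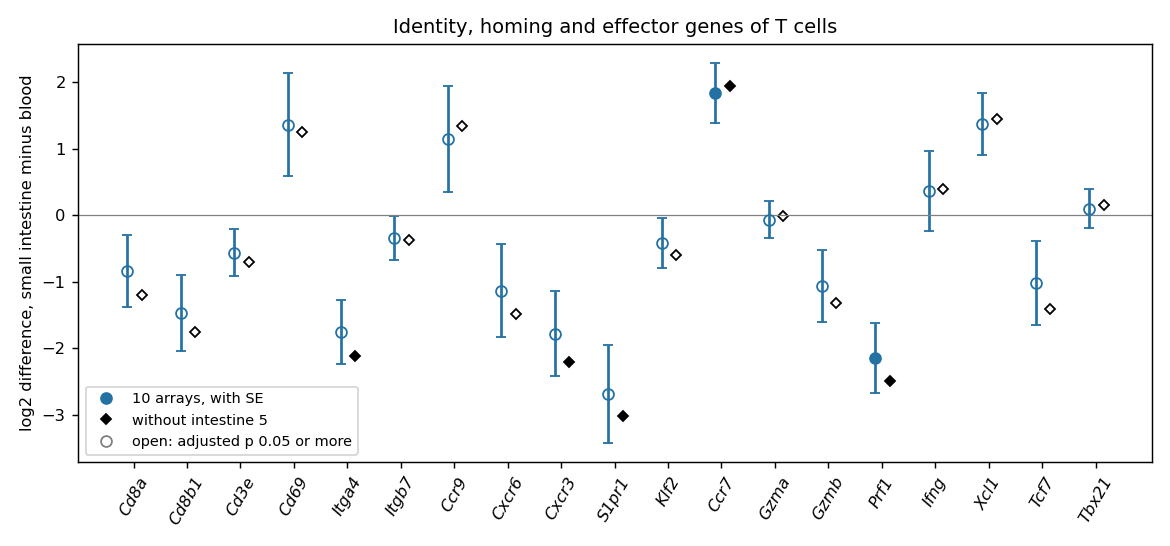
Log2 difference, small intestine minus blood (y axis), of 19 T cell genes with its standard error over all 10 arrays (circles) and without intestine 5 (diamonds), filled where the adjusted p is under 0.05. Ccr7 and Prf1 are filled with all 10 arrays, and Itga4, Cxcr3 and S1pr1 in addition without intestine 5.

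T cell identity genes did not pass the test. Cd8a was at 4.23, 4.47, 5.17, 5.19 and 4.27 in blood and at 3.85, 2.92, 4.96, 2.15 and 5.23 in small intestine (-0.84 ± 0.542, adjusted p = 0.266). Cd8b1 differed by -1.46 (0.132) and Cd3e by -0.57 (0.258), and all 3 were well above background on all 10 arrays. Intestine 2 and 4, where the Paneth cell list was highest, had the lowest Cd8a, and intestine 3 and 5 lay within or above the blood range. Cytosolic ribosomal protein genes, 40 of 40 tested, had a median of 0.13 with 0 called by limma and 0 at an unadjusted p under 0.05, and 3 of the 5 other scalings turned that sign.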

How the data were processed

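Each one-colour array (Cy3, 300 pg of RNA amplified in 2 rounds per the labels) has a scanner output deposited by the authors. Its processed signal is an intensity, background-subtracted per the file headers, and its mean and background intensities entered an alternative. The submitters' processing notes name Feature Extraction 10.7, whereas the file headers name 9.5.1.1. A deposited log2 table, which matched centred quantile-normalised log2 signal (lowest correlation 0.99999), was another alternative. Its columns' medians ran from -0.030 to 0.028, its centring is inferred from that match, and its direction is that of the signal.

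Control spots and spots flagged as outliers were left out. Signals were log2-transformed and scaled to each array's 75th percentile. Testing was limited to probes with a gene symbol that were well above background on at least 4 of 5 arrays of a site, with the brightest probe per gene (9781 probes, 8269 genes). Of 39429 probes, 27586 were named through their accession, 3497 by symbol, 393 by synonym, 1528 kept the file's name and 6425 had none. The lowest signal among probes well above background set the limit for "at least" folds. limma 3.58.1 (R 4.3.3) was fitted to these 10 arrays. The numbers of arrays limit the precision. On simulated data for this comparison (8269 genes) 15% of 1-log2 and 69% of 2-log2 changes were recovered and 0.04% of unchanged genes were called.

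The members and gene lists were chosen with earlier results of these data known. Genes named are the 15 highest and lowest called with and without intestine 5, up to 4 called members of a list in each direction, a fixed panel of T cell genes, and some chosen after their values were seen. These last are Gm1096, Rhob, Nxt2, Adh4, Ckb, Ifrd1, Metrnl, Kif22, Rrm2, Tk1, Cish, Irf4, Gadd45b, Relb, Nfkb2, Zfp36l2, Defa24 and Jchain, and the promoters except those of Dusp1 and Ccr7. The NF-kappaB, E2F, CCAAT and cell cycle homology letters were added then too. Alternatives covered scaling, background, filters, probes, slide, weights, variance model, all 24 arrays and single arrays left out. A member of the fixed panel is not reported here.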

Additional observations from a re-analysis of the deposited data

Results flagged for a closer look

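Dixon's ratio (the gap of the highest or lowest array to its neighbour over the group's range) exceeded its critical value of 0.71 for 14 of 230 combinations of a measure and a site. Chance flags about 1 in 20. In 6 of the 14 the far array was intestine 5. It was the lowest intestinal array for Igh-VJ558 (ratio 0.882), and the highest for Dusp7 (0.884), Iqcc (0.858), Foxm1 (0.879), Fig4 (0.74) and Deaf1 (0.922). Each of these genes except Igh-VJ558 was well above background on 1 intestinal array. Their other intestinal values lay close together near the background, so the ratio does not measure the spread of expression there. Intestine 4 was the lowest intestinal array for Nfkbie (0.725), Pole (0.751) and Prdm1 (0.741). In blood, array 5 was far above the others for Tnfsf11 (0.722) and array 4 for Il7r (0.777), while array 1 was far below them for Keap1 (0.741), array 3 for Klf2 (0.721) and array 4 for Ccl4 (0.716).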

How the results depend on the processing

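No called result among the genes and lists recomputed under every setting reversed its direction (Gadd45b, Relb, Nfkb2, Zfp36l2 and other list members named with values were not followed there). The number of called genes, 298, was 127 after scaling to the median of detected probes, 191 after quantile normalisation, 190 in the deposited log2 table, 61 with no filter on dim probes and 1329 with all 24 arrays in the fit. It was 473 with 1 weight per site, 3169 with array weights (of which intestine 1 received the largest, 6.898) and 965 without intestine 4 and 5. Leaving out single arrays gave 5 to 1349. With the replicate block, which is the same as the slide block, 21 genes were called, 20 of them shared. The correlation of same-numbered arrays' deviations ran from -0.309 to 0.471 (0.038, 0.098, 0.471, -0.309 and -0.138), and 1 of 5 intestinal arrays correlated best with its own number, so the numbers are not treated as pairing the samples. The other 8 settings gave 219 to 348. Of 55 called genes named by the rule or after their values were seen, 55 stayed called without intestine 5 and 11 with the block, and 4 (Cd83, Gjb2, Trp53inp2 and Haspin) in every alternative that tested them. Of 41 lists, 7 had a median that changed sign under at least 1 other scaling. The share of probes above background differed by -1.81 to 1.67 percentage points with single arrays left out. Scan date was not run as a block because all 10 arrays were scanned on the same day.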
